A study of Mus musculus with 6 samples.

Results

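The let-7 family of microRNAs was followed in mouse lung through 9 probe sets, those for let-7a, let-7b, let-7c, let-7d, let-7e, let-7f, let-7g, let-7i and miR-98, taken by name from the 609 mouse microRNA probe sets of an array that carries 7625 in all. Passenger (star) strands were left out. RNA came from the left upper lung lobe of 6 mice, 1 array each. The first group holds 2 CC10-rtTA-IL13 transgenic mice (TG). In this model doxycycline switches on a transactivator (rtTA) expressed from the club cell promoter CC10, and with it a transgene for interleukin 13, which is a cytokine of allergic (type 2) inflammation. The second group holds 4 wildtype mice (WT). Strain (C57BL/6), age (6 to 10 weeks) and treatment (doxycycline in the drinking water at 2 mg/mL, for 7 days) were the same in both. There were no mice with rtTA and no transgene for interleukin 13, so effects of rtTA and of interleukin 13 cannot be told apart, and the microRNA array gives no reading of interleukin 13 to check the genotype. The comparison addresses whether an induced interleukin 13 transgene goes along with other let-7 levels in the lung.

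MicroRNAs are short RNAs that guide Argonaute proteins to messenger RNAs, mainly by pairing of their seed, the stretch near the 5′ end, with sites in the target, and lower its translation and stability. The let-7 family is among the most abundant in differentiated tissues. Its precursors are held back in early embryos by the RNA-binding protein LIN28, and its targets include RAS, HMGA2 and LIN28 messages. let-7 microRNAs have also been studied in airway inflammation, where they were reported to bind the messenger RNA of interleukin 13.

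The mature sequences are shown because the members are told apart on the array by a few bases only. They were read from RefSeq (GRCm38.p6), which held an entry for 9 of 9 members, and run 5′ to 3′ with the seed, bases 2 to 8, in capitals.
let-7a: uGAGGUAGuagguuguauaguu
let-7b: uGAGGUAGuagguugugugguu
let-7c: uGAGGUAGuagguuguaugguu
let-7d: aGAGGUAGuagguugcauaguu
let-7e: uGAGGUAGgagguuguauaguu
let-7f: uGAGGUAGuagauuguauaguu
let-7g: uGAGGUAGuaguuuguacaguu
let-7i: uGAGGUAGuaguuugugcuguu
miR-98: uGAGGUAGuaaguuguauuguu

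Every member had 22 bases and the same seed, and 14 of the 22 positions were identical in all 9. Counted from the 5′ end and relative to let-7a, 1 base was changed in let-7c (A19G), in let-7e (U9G) and in let-7f (G12A). In let-7b the changes were A17G and A19G, so that it differs from let-7c by 1 base. The changes were U1A and U16C in let-7d, G12U and U18C in let-7g, and G11A and A19U in miR-98. The most distant from let-7a was let-7i, with G12U, A17G, U18C and A19U. The mature microRNAs held 7 to 10 G or C bases, fewest in let-7f and miR-98 and most in let-7b. The probes themselves were not used here, so how far a probe set for one member also binds another was not tested, and the brightness of different members' probe sets is not ranked. In RefSeq, 2 further mouse microRNAs, let-7k and miR-1961, had the same seed and are not analysed here.

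Probe sets for plant microRNAs (1631) served as background: a signal over their 95th percentile on the same array was called detected. Detection on 2 or more arrays was required for testing, and 197 mouse probe sets met this. Of the 9 members, 8 were detected on all 6 arrays and tested. The remaining member was miR-98, detected on 1 array. Values are given on the log2 scale, the base being inferred from their range. The difference between TG and WT was fitted with limma over all 197 probe sets, and a call needed a Benjamini-Hochberg adjusted p under 0.05. No sample depth exists for arrays, and the number of arrays limits the precision.

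The arrays did not stand alike. The number of mouse probe sets detected was 201 and 199 in TG, against 149, 172, 146 and 132 in WT replicates 1 to 4. The highest value of any probe set was 13.36 and 13.19 on the TG arrays. It was 13.23 and 13.13 on WT replicates 2 and 3 but 11.50 and 11.42 on WT replicates 1 and 4. On all arrays but WT replicate 1 this was a let-7b probe set named for another mammal. The highest tested mouse probe set outside the family was at 11.44 and 11.94 in TG. It was at 11.37, 12.58, 11.53 and 11.19 in WT replicates 1 to 4. On both TG arrays and on WT replicates 2 and 3, let-7b and let-7c were above 12, while no mouse probe set was above 12 on WT replicates 1 and 4. The difference of each tested member is also given against WT replicates 2 and 3 only. That pair was picked from the members' own values, so these differences are a description and no independent check. Lung identity was checked with marker microRNAs. The endothelial miR-126-3p, the epithelial miR-200c and the smooth muscle miR-145 were detected on all 6 arrays. Of 9 markers of brain, liver, pancreas, skeletal muscle and heart, 6 were detected on none, miR-122 on 2, and miR-1 and miR-133a on 1 each.

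No member of the let-7 family passed the threshold between TG and WT (0 of 8 tested), where 3.05% of all tested mouse probe sets did (6 of 197, all higher in TG). The members' differences lay on both sides of 0. The log2 differences (TG minus WT) ran from -0.75 for let-7f to 0.99 for let-7b, with 5 above 0 and 3 below and a median of 0.29, beside a median of 0.21 over all tested probe sets. The members' median was 0.093 without WT replicate 4 and 0.0079 with only WT replicates 2 and 3, where the median over all tested probe sets was 0.13. At an unadjusted limma p under 0.05 there was 1 member, let-7f, against 19.8% of all tested probe sets. In 3 members the TG values both exceeded all WT values, and in 1 member both fell under them. This held for 29.4% and 6.60% of all tested probe sets, so these counts are near the background. After centring of the arrays on their tested median, every difference shifts down by 0.44, the median of the members becomes -0.15 and 2 of the 8 stay above 0, so the direction of a small positive difference is not settled. The family's own median per array was 9.92 and 9.95 in TG and 9.96, 10.21, 9.89 and 9.41 in WT replicates 1 to 4, and the groups overlapped.

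**Figure D1:**
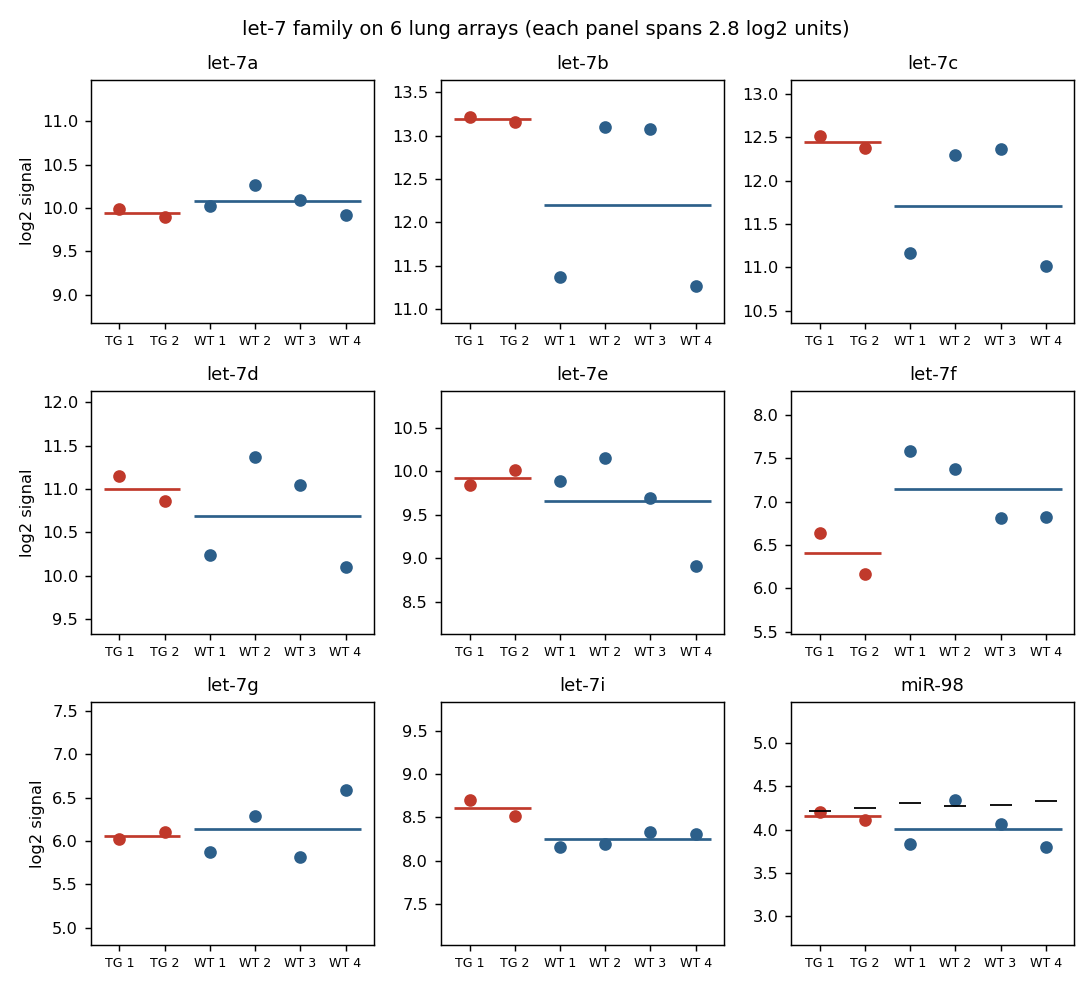
Log2 signal of the 9 member probe sets on the 6 arrays, TG in red and WT in blue, with points for single arrays and bars for group means; black dashes in the miR-98 panel mark each array's detection limit, and the vertical axes differ in position but have equal span. let-7b and let-7c are low on WT replicates 1 and 4 alone, let-7f is lower on both TG arrays than on any WT array, and miR-98 lies above its limit on 1 array.

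let-7f (mmu-let-7f_st) gave the lowest difference of the family. Its log2 values were 6.64 and 6.17 in TG and 7.59, 7.38, 6.81 and 6.82 in WT replicates 1 to 4. Both TG values thus lay below every WT value, with a TG mean of 6.40 ± 0.34 (SD, n = 2) against a WT mean of 7.15 ± 0.39 (SD, n = 4). The difference was -0.75 ± 0.31 (SE), a TG level 0.60 times that of WT with a 95% interval of 0.36 to 0.98 times. limma gave an adjusted p of 0.232, which did not pass, and the exact two-sided permutation test over the 15 splits of the arrays gave p = 0.133. The smallest p that this permutation test can give is 0.0667, so it cannot reach 0.05 in this design.

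The let-7f difference was of similar size without WT replicates 1 and 4. With only WT replicates 2 and 3 it was -0.69 ± 0.31 (SE; limma adjusted p = 0.308). Leaving out single arrays gave -0.98 to -0.51, and it was below 0 in all 18 alternative settings tried. Not all of these could move it: changes to the detection filter or limit and a mean-variance trend leave a difference as it is by construction. The array also carries 7 probe sets named let-7f for other mammals, all detected. All 7 had differences below 0, from -1.08 to -0.64. For 6 of them both TG arrays were below all WT arrays, as in 6.60% of all tested mouse probe sets. The 7 share the RNA of the mouse probe set and are no further animals. They do give the spread between probe sets on one array, which averaged 0.23 (SD). The spread between WT arrays was 0.39 for the mouse probe set and 0.20 for the average of all 8.

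Averaged over the mouse and the 7 other probe sets, let-7f had values of 6.53 and 6.38 in TG and 7.22, 7.34, 6.93 and 7.36 in WT. The groups again did not overlap. The difference of the averages was -0.76 ± 0.17 (SE). Its limma adjusted p of 0.0502 lay just short of the threshold, which 14 of 197 averaged probe sets (7.11%) passed, and the exact permutation test gave its smallest possible p of 0.0667.

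Values were also taken relative to the family median of the same array, which removes any shift common to the members. On this scale let-7f was at -3.28 and -3.79 in TG and at -2.37, -2.83, -3.08 and -2.59 in WT replicates 1 to 4, so both TG arrays were again below all WT arrays. This was so for 2.54% of all tested probe sets set against the same median. Of the other members, let-7b lay above all WT arrays on this scale (22.3% of all tested probe sets did) and the remaining 6 overlapped. Such a ratio compares members with each other and cannot tell which member changed, and no test was run on this scale.

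let-7i (mmu-let-7i_st) also had a difference of similar size without WT replicates 1 and 4. It had log2 values of 8.70 and 8.51 in TG, against 8.16, 8.19, 8.33 and 8.31 in WT replicates 1 to 4. Both TG arrays were above all WT arrays, whose spread (SD 0.085, n = 4) was the smallest among the 8 tested members. The difference was 0.35 ± 0.21 (SE), or 1.28-fold with a 95% interval of 0.91 to 1.80, and did not pass (limma adjusted p = 0.400; exact permutation p = 0.0667, the smallest possible). It was 0.34 with only WT replicates 2 and 3 but -0.08 with centring on the tested median. All 6 probe sets of other mammals for let-7i had differences above 0, from 0.08 to 0.37. In 4 of the 6 both TG arrays were above all WT arrays, as in 29.4% of all tested mouse probe sets. The let-7i probe sets differed widely in level, with a mean SD of 1.25 within an array, more than the SD of 0.085 between WT arrays.

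let-7b (mmu-let-7b_st) and let-7c (mmu-let-7c_st), which differ from each other at position 17 alone, gave the largest positive differences, and these rested on WT replicates 1 and 4. let-7b had log2 values of 13.22 and 13.16 in TG and 11.37, 13.10, 13.07 and 11.27 in WT replicates 1 to 4. let-7c had 12.51 and 12.37 in TG and 11.16, 12.29, 12.37 and 11.02 in WT. In both, the WT arrays fell into a high and a low pair, and the TG values were just above the high pair.

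The let-7b difference was 0.99 ± 0.58 (SE) with a limma adjusted p of 0.400, and that of let-7c 0.73 ± 0.44 with the same adjusted p; neither passed. With only WT replicates 2 and 3 they were 0.10 ± 0.27 and 0.11 ± 0.27. Quantile normalization, which gives all arrays the same distribution, brought let-7b to 0.000996. In these members the spread between probe sets on one array was far smaller than that between WT arrays. For let-7b the 5 probe sets of other mammals and the mouse probe set differed by 0.058 (mean SD within an array), against an SD of 1.02 between WT arrays. For let-7c these values were 0.046 and 0.72. The 5 let-7b probe sets of other mammals had differences of 0.92 to 1.02 and the 6 for let-7c 0.68 to 0.76. The low values of WT replicates 1 and 4 were thus read alike by every mammalian probe set of these names. Both TG arrays were above all WT arrays in only 2 of those 5 and 2 of those 6. This held for 29.4% of all tested mouse probe sets.

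let-7d (mmu-let-7d_st) followed the same array pattern with a smaller swing. Its log2 values were 11.14 and 10.86 in TG and 10.24, 11.37, 11.05 and 10.09 in WT replicates 1 to 4, and the groups overlapped. The difference of 0.31 ± 0.39 (SE; limma adjusted p = 0.732) became -0.21 with only WT replicates 2 and 3 and -0.12 with centring on the tested median. For let-7e (mmu-let-7e_st) the log2 values were 9.84 and 10.02 in TG and 9.89, 10.15, 9.69 and 8.90 in WT, where replicate 4 alone was low. Its difference was 0.27 ± 0.36 (limma adjusted p = 0.740), but 0.018 without WT replicate 4 and 0.0068 with only WT replicates 2 and 3. It turned to -0.17 with centring on the tested median.

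let-7a (mmu-let-7a_st) and let-7g (mmu-let-7g_st) showed the smallest differences. let-7a had log2 values of 9.99 and 9.89 in TG and 10.02, 10.27, 10.09 and 9.92 in WT replicates 1 to 4. WT replicates 1 and 4 were also its lower pair, but by far less than in let-7b and let-7c. Its difference was -0.13 ± 0.22 (SE; limma adjusted p = 0.799), with a 95% interval for TG of 0.64 to 1.30 times the WT level, and -0.24 with only WT replicates 2 and 3. All 6 probe sets of other mammals were below 0, from -0.21 to -0.09. let-7g had 6.02 and 6.10 in TG and 5.87, 6.29, 5.82 and 6.59 in WT, a difference of -0.08 ± 0.28 (limma adjusted p = 0.900) and an interval of 0.60 to 1.49 times. The sign for let-7g is not settled, since it was 0.07 without WT replicate 4 and 0.0091 with only WT replicates 2 and 3. Its 5 probe sets of other mammals had differences from -0.51 to -0.02, and within an array the let-7g probe sets had a mean SD of 0.65, against 0.37 between WT arrays.

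miR-98 (mmu-miR-98_st) could not be told from background. Its log2 values were 4.21 and 4.11 in TG and 3.84, 4.34, 4.06 and 3.80 in WT replicates 1 to 4, and only that of WT replicate 2 exceeded its detection limit of 4.27. No fold is given. Of 10 miR-98 probe sets of other mammals, 8 were detected on at least 2 arrays, with differences from -0.01 to 0.37 in values that also lay near the limit.

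**Figure D2:**
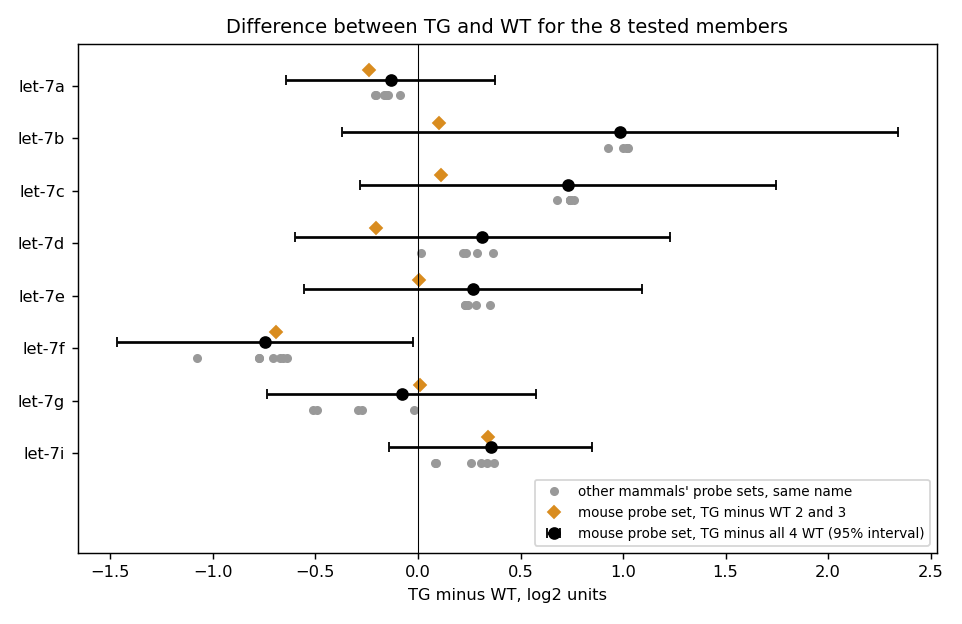
Difference in log2 signal (TG minus WT) of the 8 tested members. Black points and bars show the mouse probe set with its 95% limma interval against all 4 WT arrays, orange diamonds the same probe set against WT replicates 2 and 3, and grey points the detected probe sets of the same name for other mammals; let-7f stays between -1.08 and -0.64 in all of these points, while let-7b and let-7c drop to 0.10 and 0.11 against WT replicates 2 and 3.

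With all WT arrays, the differences followed the base composition of the members. let-7f, with 7 G or C bases, had -0.75. let-7a and let-7g, with 8, had -0.13 and -0.08. let-7c, let-7d, let-7e and let-7i, with 9, had 0.73, 0.31, 0.27 and 0.35, and let-7b, with 10, had 0.99. Across the 8 tested members Pearson's r was 0.96, and 0.84 across 9 with miR-98, which has 7 such bases and a background value. This is a description, without a test, since the points share the same 6 arrays and their sequences are near copies. The order was steeper with all WT arrays than with WT replicates 2 and 3 alone, the slope being 0.57 and 0.26 log2 units per base. With those WT replicates alone r was 0.75, or 0.42 without let-7f. Quantile normalization of all 6 arrays gave an r of 0.81 and a slope of 0.33. Centring leaves r as it is, because it moves every member alike. The same question was not put to the other tested probe sets, of which only a part could be matched to a sequence. Of all 197 names, 63 (32.0%) matched a single RefSeq mature sequence. Whether such an order is particular to let-7 was therefore not tested.

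**Figure D3:**
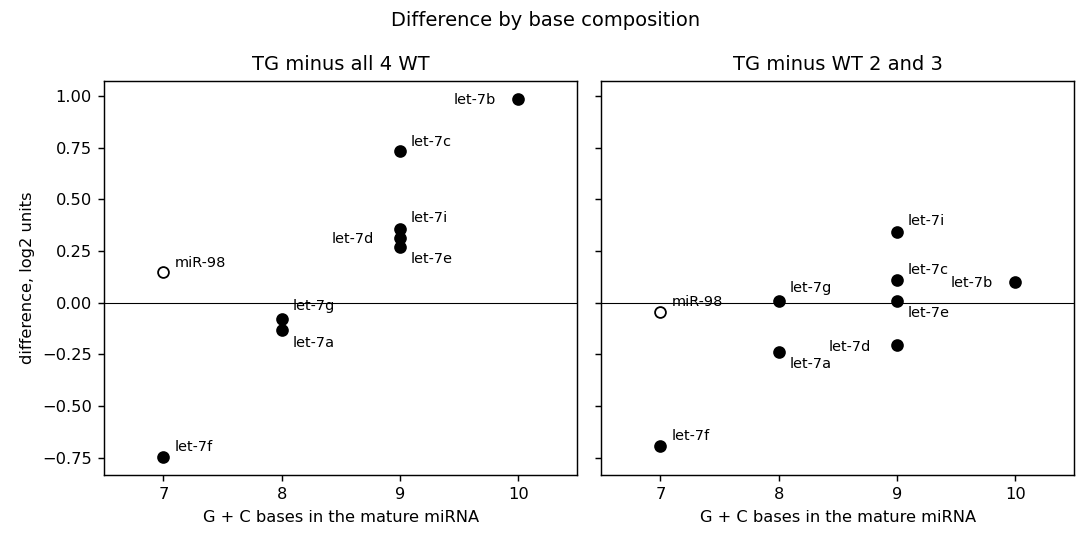
Difference in log2 signal between TG and WT (vertical axis) by the number of G and C bases in the mature microRNA (horizontal axis), against all 4 WT arrays on the left and against WT replicates 2 and 3 on the right. Filled points are the 8 tested members and the open point is miR-98; on the left the differences are higher with more G and C, up to 0.99 for let-7b, and on the right all but let-7f and let-7i lie within 0.24 of 0.

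Several members are made from neighbouring genes, whose products can be set side by side. In RefSeq, Mirlet7a-1, Mirlet7f-1 and Mirlet7d lie within 50 kb of each other on chromosome 13, and their products had differences of -0.13, -0.75 and 0.31. let-7a and let-7f each have a further gene, Mirlet7a-2 beside Mir100 and Mir125b-1 on chromosome 9 and Mirlet7f-2 beside Mir98 within Huwe1 on the X chromosome, and the array cannot tell the copies apart. let-7b and let-7c, alike in their profile, are neighbours on chromosome 15 within Lncppara, but let-7c also has a gene on chromosome 16 beside Mir99a and Mir125b-2. let-7g lies within Wdr82 on chromosome 9, and let-7i on chromosome 10 has no microRNA gene within 50 kb. These positions are those of RefSeq (GRCm38.p6). The array files name no build, so no coordinates are printed.

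Of 5 microRNAs chosen as partners of let-7 genes in their clusters, none passed (0 of 5; 3.05% of all tested probe sets did). miR-99b, encoded next to let-7e, had log2 values of 8.84 and 9.09 in TG and 8.18, 8.68, 8.33 and 7.66 in WT replicates 1 to 4. Both TG arrays were above all WT arrays, as in 29.4% of all tested probe sets. The difference was 0.76 ± 0.31 (SE; limma adjusted p = 0.232), or 0.46 with only WT replicates 2 and 3. miR-125a-5p, from the same stretch as let-7e, was at -0.14 ± 0.54, with WT values from 5.41 to 7.36, and at -0.51 with only WT replicates 2 and 3. The partners of let-7c and let-7a had negative differences, miR-99a -0.70 ± 0.35, miR-100 -0.38 ± 0.36 and miR-125b-5p, a relative of the worm microRNA lin-4, -0.36 ± 0.24. With only WT replicates 2 and 3 these 3 differences were -0.42, -0.05 and -0.36. For miR-125b-5p both TG arrays were below all WT arrays, as in 6.60% of all tested probe sets. miR-135a, whose gene Mir135a-1 lies within 50 kb of Mirlet7g, is outside that list and was detected on 0 arrays. The 8 probe sets for star strands of let-7 hairpins, the arm that is mostly discarded, were detected on 0 arrays, with values from 3.58 to 4.22, so they show nothing on the hairpins.

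**Figure D4:**
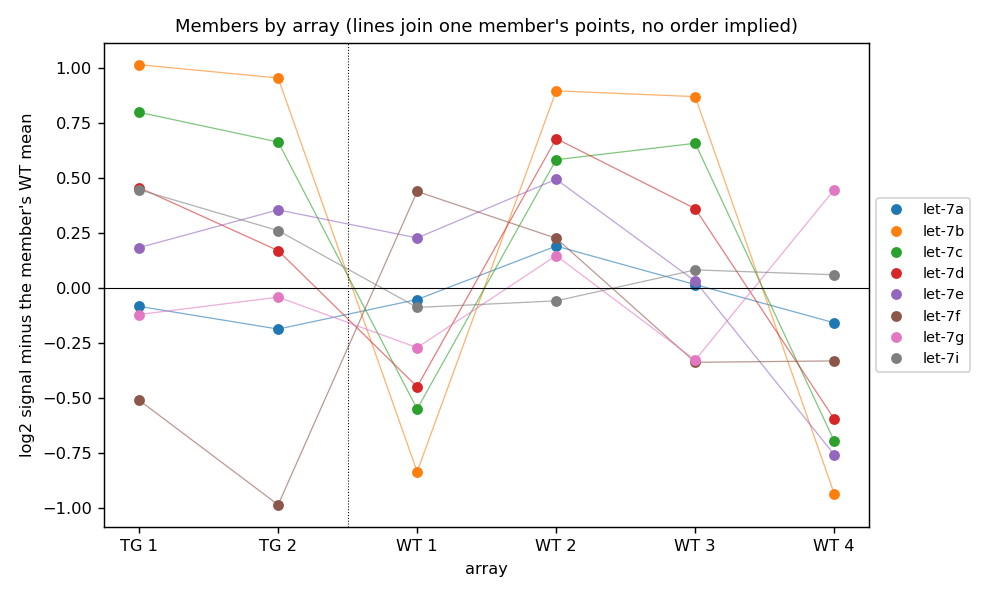
Log2 signal of each tested member minus its own WT mean (vertical axis) on the 2 TG and 4 WT arrays (horizontal axis), 1 colour per member. let-7b, let-7c and let-7d are high on both TG arrays and on WT replicates 2 and 3 and low on WT replicates 1 and 4, let-7f is low on both TG arrays, and let-7g is highest on WT replicate 4.

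Outside the family, the profile of let-7b over the 6 arrays was most like those of miR-151-3p, miR-672 and miR-92b among 165 other tested mouse probe sets. Likeness was the mean absolute difference of the 6 values after each probe set's own mean had been subtracted. It was 0.330, 0.333 and 0.335 log2 units for these, with a median of 0.704 over the 165, and 0.231 for let-7c. miR-672 had 6.78 and 6.82 in TG and 4.67, 6.42, 5.55 and 4.22 in WT replicates 1 to 4, thus also lowest on WT replicates 1 and 4, and a difference of 1.59 ± 0.56 (SE; limma adjusted p = 0.164), or 0.82 with only WT replicates 2 and 3. let-7f was most like miR-185, at 0.218, miR-133b, at 0.245, and miR-207, at 0.276, with a median of 0.569. miR-185 had 7.31 and 7.17 in TG and 7.82, 7.84, 7.04 and 7.38 in WT, where the groups overlapped, and a difference of -0.28 ± 0.29 (limma adjusted p = 0.682), or -0.21 with only WT replicates 2 and 3.

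For markers of other cells, the summed signal of the leukocyte and the epithelial list did not overlap between the groups, though no single tested marker of either list passed. The summed signal of 6 leukocyte markers, as log2 of the sum, was 8.68 to 8.87 in TG and 7.92 to 8.44 in WT. That of 8 epithelial markers was 10.21 to 10.31 in TG and 9.65 to 10.00 in WT. Both TG arrays were also above all WT arrays in 29.4% of all tested probe sets, so such a separation was common here. Each sum weighs its brightest marker most and does not speak for the whole list. In TG the brightest epithelial marker was miR-200c, with a mean of 9.99, and next was miR-200b at 5.61. Among leukocyte markers it was miR-342-3p, and next was miR-150 at 6.65. Members of both lists had differences of either sign. Among leukocyte markers, miR-342-3p was at 1.14 and miR-223 at -0.27, and among epithelial markers miR-200c was at 0.54 and miR-203 at -0.31. Of the 6 leukocyte and 8 epithelial markers, 4 and 8 were tested, and miR-142-3p and miR-142-5p, which mark blood cells broadly, were detected on no array. The endothelial miR-126-3p was at 9.32 in TG and 10.37 in WT, a difference of -1.05, or -0.76 with only WT replicates 2 and 3. With all arrays it did not pass the threshold either, and it is the only marker of its list. The sums of 3 erythroid, 2 smooth muscle and 4 mesenchymal markers overlapped between the groups. The part of these cells in the let-7 values was not tested, and in whole lobes fewer cells of a type and less RNA per cell cannot be told apart.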

How the data were processed

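The authors deposited 1 value per probe set and array for 2 TG and 4 WT lung samples, taken here as log2 because the values have a dense floor near 4 and reach 13.36, above what natural logarithms of a 16-bit scanner allow. Per the labels' protocols, TRIzol was used for total RNA and a standard Affymetrix procedure for biotin labelling. No batch is named, and for background, summarization and normalization the method is not stated in the labels. All columns were used (0 unused). The labels call the samples biological replicates.

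limma 3.58.1 in R 4.3.3 (lmFit, eBayes, no covariate) was fitted to all 197 tested mouse probe sets, two-sided, with Benjamini-Hochberg adjustment over the 197. Permutation tests were exact over 15 splits. The fit was tested on simulated data with independent noise, which held no shift shared by the probe sets of an array. The text names all members, 5 cluster partners, star strands as counts, and the 3 probe sets most like let-7b and let-7f. Members, lists and alternatives were chosen with earlier results of these data known. Alternatives covered the detection filter and limit, normalization and centring, the variance model, same-name averaging, each array left out, WT replicates 2 and 3 only, and the replicate number.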

Additional observations from a re-analysis of the deposited data

How the results depend on the processing

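No let-7 member passed the threshold in any of the 18 alternatives (0 of 8 each time), while the count of calls over all tested mouse probe sets, 6 with all arrays, was 1 without the detection filter, 1 with detection on 4 or more arrays, 2 with the 99th plant percentile, 0 with quantile normalization, 2 with centring on the tested median, 33 with array weights and 14 with same-name averaging. Leaving out single arrays gave 0 to 27 calls, 0 without either TG array and without WT replicates 1 or 3, and 27 without WT replicate 2; the cause was not tested. The family median difference of 0.29 became -0.15 with centring on the tested median, which by construction lowers every difference by 0.44. It was 0.0079 with WT replicates 2 and 3 only, 0.043 with quantile normalization, 0.089 on the arrays numbered 1 and 2, and 0.093 to 0.39 with single arrays left out, lowest without WT replicate 4. The same centring turned let-7d to -0.12, let-7e to -0.17 and let-7i to -0.083. let-7d turned to -0.21 and let-7g to 0.0091 with WT replicates 2 and 3 only, let-7g to 0.058 with array weights, and over single arrays left out let-7g ran from -0.19 to 0.069. Signs of let-7a, let-7b, let-7c and let-7f held in all 18, though changes to the detection filter or limit and a mean-variance trend cannot alter a difference. The samples share replicate numbers without a stated pairing: deviations from the group means correlated at -0.21 for the arrays numbered 1 and 0.074 for those numbered 2. The deviations of 2 TG arrays mirror each other by construction. Exchanging the TG arrays therefore only reverses the signs, to 0.21 and -0.074, and these values do not settle a pairing. On the 4 arrays numbered 1 and 2 the replicate block gave 12 calls and 0 members, the fit without it 0 calls, and let-7e was -0.091 in both. With 2 TG arrays, precision is limited throughout, with standard errors of 0.21 to 0.58 for the members; miR-98 lies at the detection limit.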
